A study of Mus musculus with 32 samples.

Results

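The elastic fiber genes described here are 10 genes chosen by symbol, Eln, Fbn1, Fbln1, Fbln2, Fbln5, Mfap2, Mfap4, Mfap5, Emilin1 and Ltbp4, out of the 35275 genes counted. They were followed in lung tissue of C57B/6 mice, from which poly(A) RNA was sequenced as 32 libraries, divided over 8 groups and 2 experiments. In the first experiment, mice without surgery were exposed for 5 months to room air (3 male and 3 female libraries) or to cigarette smoke (5 male and 5 female libraries). In the second, every mouse was a female exposed to smoke. These mice had either their ovaries removed (ovariectomy) or a sham operation, with 3 libraries of each after 3 months of exposure and 5 of each after 5 months. No ovariectomized or sham-operated group breathed room air. The labels give neither the age of the mice nor the smoke dose, and do not say that each library came from a separate animal, so the p-values measure the spread between libraries, which may be technical. Library names run in a separate series for air and for smoke in the first experiment, each shared by both sexes, and for each group in the second. A batch that followed these series cannot be told apart from smoke exposure, or from surgery and time.

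Elastic fibers let the lung and its arteries stretch and recoil. A fiber is built from a core of crosslinked elastin laid down on a scaffold of fibrillin microfibrils, and further glycoproteins on or near the microfibrils guide its assembly. In the lung most elastin is made during late development and early postnatal growth, by fibroblasts, myofibroblasts and smooth muscle cells, and the fibers turn over slowly in the adult. Breakdown of elastic fibers is a known feature of emphysema. A transcript level in adult lung therefore reports current RNA, not the amount of fiber.

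In the files' build, GRCm38/mm10, Eln lies at chr5:134703781-134747241 on the minus strand. The fibrillin gene Fbn1 lies at chr2:125300594-125507993, minus strand. The fibulin genes lie at chr15:85205949-85286535 (Fbln1, plus strand), chr6:91212455-91272540 (Fbln2, plus) and chr12:101746565-101819055 (Fbln5, minus). The microfibril-associated protein genes lie at chr4:141010418-141015984 (Mfap2), chr11:61485431-61488900 (Mfap4) and chr6:122505845-122529290 (Mfap5), all on the plus strand. Emilin1 lies at chr5:30913402-30921278 on the plus strand and Ltbp4 at chr7:27305136-27337692 on the minus strand. All 10 are annotated as protein-coding.

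All 10 genes were well covered. The lowest count of any of them in any library was 331, for Fbln2, against library totals of 13790052 to 24497332 counts, and all 10 were tested in both experiments. All 10 lung markers, which include the surfactant gene Sftpc, were detected in each group. Male air library 3 stood apart from the other 2 of its group, with 749 CPM of Eln (counts scaled to a common library total) against 286 and 336. Its summed CPM of 6 erythroid markers was also the highest of its group, at 11752 against 3805 and 4762. Its large airway marker sum was the lowest, at 11896 against 33149 and 27200, as was its mesothelial marker sum, at 1093 against 1442 and 1439. The adventitial fibroblast marker sum was close to the others, at 1761 against 1759 and 1701. CPM values are scaled by TMM (a correction for library composition) within an experiment, and serve to compare libraries. TPM values, which are also corrected for gene length, come from the deposited normalized table and serve to compare genes. The liver gene Alb exceeded 100 CPM in 2 libraries of the first experiment (male air 1 and female air 2) and in 5 of the second (ovariectomy at 3 months 2 and 3, sham at 5 months 1 and 2, ovariectomy at 5 months 5). Results that change without them are given below.

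Per unit of gene length, Mfap4, Ltbp4 and Eln were the 3 most abundant of the genes in all 8 groups. Mfap4 encodes a fibrinogen-domain glycoprotein that binds microfibrils and tropoelastin, and averaged 502 TPM over all libraries. Ltbp4 encodes a latent TGF-beta binding protein that helps fibulin-5 to deposit elastin, and averaged 329 TPM. Eln, which encodes elastin itself, averaged 231 TPM. Its deposited length is 2583 bases, against 8098 exonic bases in GENCODE M21, so the place of Eln among the genes depends on the length used. In the middle came the fibulin gene Fbln5 at 104 TPM, Mfap2 at 82.2 TPM and Fbln1 at 57.1 TPM. The lowest means were those of Mfap5 (34.8 TPM), Emilin1 (31.2 TPM), Fbn1 (18.7 TPM) and Fbln2 (14.7 TPM). In female air the levels of Mfap4, at 429.5 ± 32.5 (SD, n = 3), lay above all values of Ltbp4. Those of Ltbp4 (323 ± 15.7) and Eln (272 ± 39.5) overlapped, as did those of Fbln5 and Fbln1 and those of Mfap5 and Emilin1. Fbln5 stood below Mfap2 in mean TPM in both air groups (71.5 ± 1.09 against 123 ± 20.5 in female air) and above it in all 6 smoke groups, for example 136 ± 4.47 against 69.0 ± 12.1 after ovariectomy at 5 months (SD, n = 5).

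**Figure D1:**
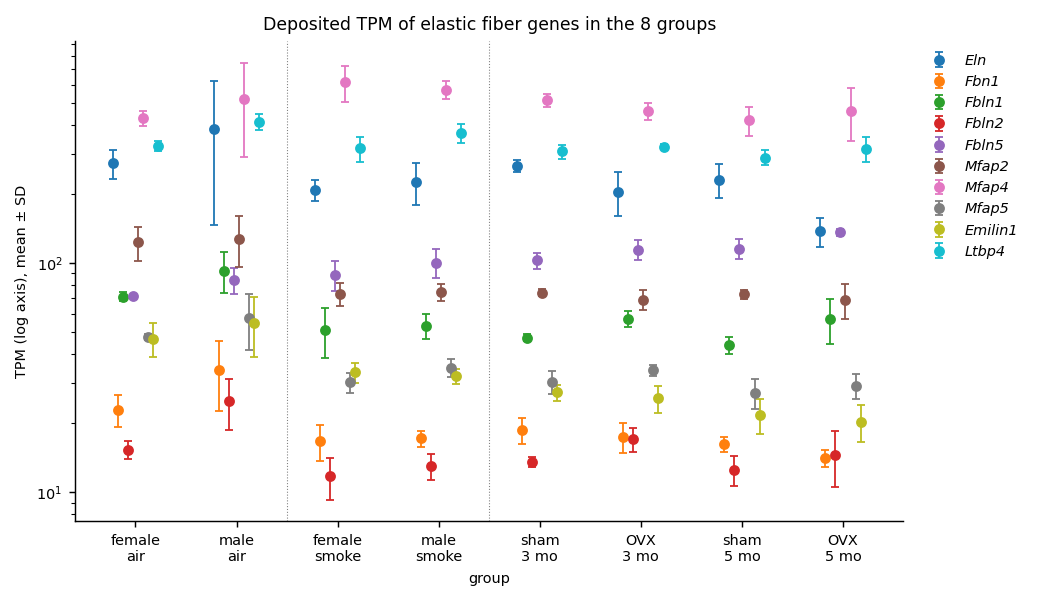
Mean ± SD of the deposited TPM values (log axis) of the 10 genes in each of the 8 groups, 3 or 5 libraries each. Dotted lines separate the air groups, the smoke groups of the first experiment and those of the second. Mfap4, Ltbp4 and Eln have the 3 highest means in every group, and Eln drops to the level of Fbln5 in the ovariectomized group at 5 months. The place of Eln among the genes depends on the gene length used for its TPM.

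Smoke exposure in females was accompanied by lower levels of several genes of the fibrillin microfibril. Of the 10 genes, 5 fell (Mfap2, Mfap5, Emilin1, Fbln1 and Fbn1) and 0 rose at an adjusted p under 0.05 in edgeR's quasi-likelihood test with Benjamini-Hochberg adjustment over all 16361 genes. Among all genes tested, 3.18% fell and 4.52% rose. The median log2 fold change of the 10 genes was -0.47, against -0.01 for all genes. At an unadjusted p under 0.05, 8 of the 10 differed. The share of all genes at this unadjusted threshold is not given, here or below, so such counts have no background beside them. DESeq2 also found 0 that rose in either sex. In males 6 of the 10 fell, the same 5 and Fbln2, and 0 rose, where 5.33% of all genes fell and 4.93% rose. The median in males was -0.72, against 0.01 for all genes, and 8 of the 10 again had an unadjusted p under 0.05. Air and smoke libraries did not overlap for 6 of the 10 genes in the lower and 1 in the higher direction in females, against 6.47% and 8.04% of all genes. In males they did not overlap for 6 in the lower and 0 in the higher direction, against 8.21% and 8.61%. In bulk lung, fewer cells of a type and less RNA per cell cannot be told apart, here and in the results that follow.

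Mfap2 and Mfap5 encode small glycoproteins (MAGP-1 and MAGP-2) that sit on fibrillin microfibrils. In female air, Mfap2 measured 53.9, 61.8 and 78.2 CPM, and in female smoke 35.9, 43.2, 40.2, 33.2 and 33.7 CPM. In males the values were 59.1, 55.4 and 77.8 CPM in air and 39.3, 41.8, 35.2, 37.8 and 38.9 CPM in smoke. In both sexes every smoke library lay below every air library. In females the log2 fold change was -0.79 ± 0.12 (SE, adjusted p = 3.84e-04), a 1.73-fold fall. In males it was -0.73 ± 0.12 (SE, adjusted p = 5.04e-04). Mfap5 measured 57.2, 54.7 and 62.2 CPM in female air against 32.5, 33.6, 34.7, 40.0 and 36.6 CPM in female smoke. Its male values were 64.0, 53.9 and 82.8 CPM in air and 40.8, 44.3, 40.1, 38.7 and 45.6 CPM in smoke, and again no smoke library reached the lowest air library. On the log2 scale, Mfap5 changed in females by -0.71 ± 0.11 (SE, adjusted p = 3.58e-04), and in males by -0.68 ± 0.11 (SE, adjusted p = 3.26e-04). Both genes were called in both sexes under each of the 19 alternatives run per comparison.

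Fbn1 encodes fibrillin-1, the main structural protein of adult microfibrils. Its values in female air were 140.1, 142 and 119 CPM and in female smoke 92.8, 84.0, 99.0, 116 and 78.8 CPM. Male air libraries held 139, 186 and 243 CPM and male smoke libraries 104, 104, 93.2, 98.3 and 95.7 CPM. The groups did not overlap in either sex. Its female log2 fold change was -0.50 ± 0.14 (SE, adjusted p = 0.0357). The male change was -0.94 ± 0.14 (SE, adjusted p = 3.78e-04), a 1.91-fold fall. The female call was lost on leaving out any single library of the comparison except female smoke 4, with adjusted p up to 0.117. Emilin1 encodes a glycoprotein found where the elastin core meets the microfibrils. It measured 72.7, 91.5 and 99.0 CPM in female air and 56.8, 56.4, 66.7, 64.9 and 58.7 CPM in female smoke. In males it measured 85.6, 85.8 and 125 CPM in air and 55.0, 59.4, 62.9, 64.6 and 55.9 CPM in smoke, and air and smoke again did not overlap in either sex. The female change was -0.53 ± 0.12 (SE, adjusted p = 0.00728) and the male change -0.73 ± 0.12 (SE, adjusted p = 3.83e-04). Without female air library 3 the female call was lost (adjusted p = 0.0661).

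Counting was not stated to use strand, and 3 of the genes share exonic bases with a gene on the other strand in GENCODE M21. Fbn1 shares 2442 of its 12128 exonic bases with Gm9913, Eln shares 267 with Gm30003 and Mfap4 shares 89 with Mapk7. If strand was not used, reads of the shared bases cannot be told apart, and the values of these genes are uncertain to that extent. The counted Eln differs from GENCODE M21 in its start and end, and its deposited length is 2583 bases. Whether it holds the bases shared with Gm30003 is not known.

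Of the 3 fibulin genes, Fbln1 fell in both sexes, Fbln2 was called in males, and Fbln5 was called in neither sex. Fbln1 encodes fibulin-1, an elastin-binding glycoprotein also found in vessel walls and basement membranes. It fell from 132, 122 and 129 CPM in female air to 93.1, 77.3, 96.6, 112 and 60.9 CPM in female smoke, and from 138, 156 and 182 CPM to 98.5, 92.2, 100.4, 101 and 77.5 CPM in males. Air and smoke values did not overlap, with log2 fold changes of -0.54 ± 0.15 (SE, adjusted p = 0.0314) and -0.76 ± 0.14 (SE, adjusted p = 0.00272). The female call was lost without any of the 3 female air libraries or without female smoke 2, with adjusted p up to 0.108, without the Alb-rich libraries (adjusted p = 0.0609), and in a fit of the 2 female groups alone (adjusted p = 0.0825). Fbln2 encodes fibulin-2, which binds fibrillin-1 and tropoelastin. In males it measured 42.6, 61.9 and 63.0 CPM in air and 36.0, 27.3, 27.6, 30.0 and 29.1 CPM in smoke, without overlap, a log2 fold change of -0.90 ± 0.14 (SE, adjusted p = 2.74e-04). In females it measured 38.7, 34.8 and 34.0 CPM in air and 22.6, 24.8, 24.1, 35.2 and 25.6 CPM in smoke, a log2 fold change of -0.44 ± 0.14 (SE, adjusted p = 0.0593). Female smoke library 4 alone lay within the female air range, and without it Fbln2 was called (log2 fold change -0.56, adjusted p = 0.00987). DESeq2 also called it in females, with an adjusted p of 0.0455.

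Fbln5 encodes fibulin-5, which is required for elastic fiber assembly in mice and ties elastin to microfibrils and to cell-surface integrins. Unlike the other 2 fibulin genes it had positive fold changes with smoke in both sexes, neither of which passed the test. Values were 212, 187 and 213 CPM in female air and 207, 254, 282, 265 and 215 CPM in female smoke, with a log2 fold change of 0.26 ± 0.11 (SE, adjusted p = 0.156). In males they were 245, 204 and 244 CPM and 302, 274, 313, 237 and 282 CPM, a change of 0.29 ± 0.11 (SE, adjusted p = 0.0962). The male change was called without male smoke library 4 (adjusted p = 0.0361), the only 1 of 19 alternatives that called it. Air and smoke overlapped in both sexes.

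The 3 most abundant genes were not called in either sex. Eln measured 302, 364 and 362 CPM in female air and 242, 264, 282, 257 and 225 CPM in female smoke. These 2 groups did not overlap, yet the log2 fold change of -0.43 ± 0.25 (SE, adjusted p = 0.361) did not pass in the fit that shares its spread with the male groups. In a fit of the 2 female groups alone it did, with an adjusted p of 0.0105, the only 1 of 19 alternatives that called it. In males Eln measured 286, 336 and 749 CPM in air and 243, 367, 281, 259.7 and 250.5 CPM in smoke, a change of -0.70 ± 0.25 (SE, adjusted p = 0.0997). That value rested on male air library 3, without which it was -0.16 (adjusted p = 0.587). Without male air library 1 it was -0.99 (adjusted p = 0.0173). Leaving out both Alb-rich libraries, which removes the same male library and a female one, also called it (adjusted p = 0.0272). Both fits keep the same male libraries, with male air library 3 among them. Mfap4 had higher values in female smoke, 451, 521, 567, 604 and 417 CPM, than in female air, 405, 314 and 403 CPM, with no overlap and a change of 0.45 ± 0.20 (SE, adjusted p = 0.214). The fit of the 2 female groups alone called it, with an adjusted p of 0.0363, again the only 1 of 19 alternatives that did. Male Mfap4 ranged from 286 to 606 CPM in air and from 429 to 569 CPM in smoke, a change of 0.19 ± 0.20 (SE, adjusted p = 0.628). Without male air library 2 it was -0.06 (adjusted p = 0.917), and without male air library 3 it was 0.53 (adjusted p = 0.0733). Ltbp4 ranged from 797 to 938 CPM in female air and from 731 to 898 CPM in female smoke, with a female change of -0.09 ± 0.09 (SE, adjusted p = 0.646) and a male change of -0.12 ± 0.09 (SE, adjusted p = 0.46).

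**Figure D2:**
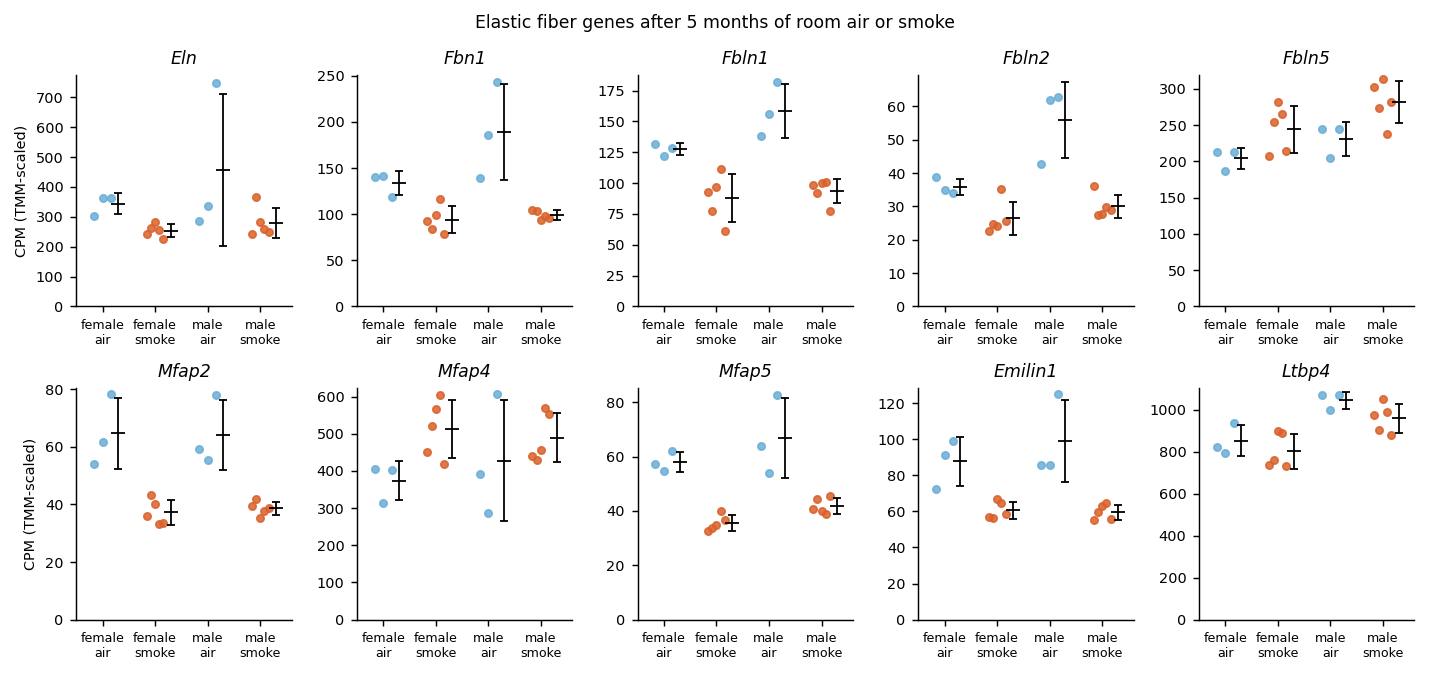
TMM-scaled CPM of the 10 genes in the 16 libraries of the first experiment, 1 point per library (blue, room air; orange, smoke), with the mean ± SD beside each group of 3 or 5 libraries. Mfap2, Mfap5, Emilin1, Fbn1 and Fbln1 show no overlap between air and smoke in either sex, and 1 male air library stands high for Eln, Mfap4, Mfap5 and Emilin1.

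Male air library 3 held the highest male air value of 9 of the 10 genes, all but Fbln5. Without it the 6 genes called in males were still called, with smaller log2 fold changes of -0.72 for Fbn1, -0.81 for Fbln2, -0.65 for Fbln1, -0.57 for Mfap2, -0.53 for Emilin1 and -0.50 for Mfap5.

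Because 4 genes that fell in both sexes have a listed promoter, their sequences are shown. They are RefSeq sequences of build GRCm38.p6, from 250 bases before to 50 bases after an annotated start, 5′ to 3′ on the gene's strand. Promoters were matched for 7 of the 10 genes, not for Eln, Mfap4 and Mfap5. Capitals mark matches, on either strand, to 3 motifs that were searched. These are the TATA box in its form TATAAA, the GC-rich box GGGCGG that Sp1-family factors are known to bind, and the palindromic E-box CACGTG. Fbn1 lies on chromosome 2, minus strand (chr2:125506389-125506688), Fbln1 on chromosome 15, plus strand (chr15:85205699-85205998), Mfap2 on chromosome 4, plus strand (chr4:141010431-141010730), and Emilin1 on chromosome 5, plus strand (chr5:30913536-30913835). For Fbln1 and Mfap2 the first of 2 listed starts is shown, and the matches depend on the start. The windows shown for Fbn1, Mfap2 and Emilin1 lie wholly within the gene coordinates given above, so their starts differ from the 5′ ends of those genes.
Fbn1: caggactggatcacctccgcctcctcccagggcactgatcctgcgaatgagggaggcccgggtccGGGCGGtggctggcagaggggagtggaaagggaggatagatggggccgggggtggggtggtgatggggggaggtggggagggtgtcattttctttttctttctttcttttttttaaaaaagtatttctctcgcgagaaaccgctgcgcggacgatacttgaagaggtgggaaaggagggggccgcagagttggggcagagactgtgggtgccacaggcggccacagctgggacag
Fbln1: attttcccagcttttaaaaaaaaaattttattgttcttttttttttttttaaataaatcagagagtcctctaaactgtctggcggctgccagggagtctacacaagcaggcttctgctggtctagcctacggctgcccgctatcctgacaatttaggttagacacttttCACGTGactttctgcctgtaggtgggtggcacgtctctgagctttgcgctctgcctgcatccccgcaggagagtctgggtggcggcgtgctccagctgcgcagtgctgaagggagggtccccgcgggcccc
Mfap2: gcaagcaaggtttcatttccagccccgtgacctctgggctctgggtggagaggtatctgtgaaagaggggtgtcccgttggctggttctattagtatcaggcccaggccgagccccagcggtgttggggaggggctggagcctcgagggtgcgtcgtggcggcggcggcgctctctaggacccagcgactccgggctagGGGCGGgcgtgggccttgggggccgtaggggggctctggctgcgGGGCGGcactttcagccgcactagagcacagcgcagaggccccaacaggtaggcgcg
Emilin1: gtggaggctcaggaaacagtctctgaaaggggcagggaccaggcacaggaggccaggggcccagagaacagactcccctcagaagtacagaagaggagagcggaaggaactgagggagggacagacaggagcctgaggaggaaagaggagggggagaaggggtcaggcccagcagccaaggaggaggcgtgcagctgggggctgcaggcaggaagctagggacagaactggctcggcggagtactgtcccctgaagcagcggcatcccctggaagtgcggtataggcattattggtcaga
The Fbn1 window holds 1 GC box and the Mfap2 window holds 2 GC boxes, while the Fbln1 window holds 1 E-box. The window of the other listed start of Fbln1 (chr15:85205758-85206057) holds 2 GC boxes and 1 E-box, and that of Mfap2 (chr4:141010174-141010473) holds none of the 3 motifs. The Emilin1 window holds none of the 3 motifs, and no TATAAA match lies in any of these 4 windows. Of all 32851 listed promoters of this length, 13.6% hold TATAAA, 35.7% hold GGGCGG and 7.15% hold CACGTG. The GC content of the 4 windows was 60.3% (Fbn1), 51.7% (Fbln1), 68% (Mfap2) and 61.7% (Emilin1). A match describes the letters in the window and is not evidence of a bound site.

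The sexes were also compared directly. The test of the difference between the male and the female response to smoke called 0 of the 10 genes, 2 at an unadjusted p under 0.05, and DESeq2 also called 0; it called 0.00611% of all genes. The log2 difference (male minus female response) was -0.46 ± 0.20 (SE, adjusted p = 0.854) for Fbln2 and -0.43 ± 0.20 (SE, adjusted p = 0.854) for Fbn1, the 2 genes with the smallest p. In room air, 0 of the 10 differed between males and females, where 0.177% of all genes did, with 3 at an unadjusted p under 0.05 (Fbln2, Fbn1 and Ltbp4). Fbln2 was 0.64 ± 0.16 (SE, adjusted p = 0.139) and Fbn1 0.50 ± 0.16 (SE, adjusted p = 0.28) in males relative to females in air, on the log2 scale. DESeq2 called 1 gene, Fbln2. Leaving out male air library 1 called Fbn1 and Fbln2, with adjusted p of 0.0266 and 0.0171. These sex values depended on male air library 3. Without it the median log2 difference of the 10 genes in air was 0.08, against 0.25 with all libraries. The median difference between the male and the female response to smoke was 0.04 without it, against -0.21. In smoke, 0 of the 10 differed between the sexes by edgeR or DESeq2 and 3 had an unadjusted p under 0.05 (Ltbp4, Mfap5 and Fbln5), where 0.189% of all genes were called. Ltbp4 had the smallest p, with a log2 difference of 0.26 ± 0.08 (SE, adjusted p = 0.36).

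Across both experiments, the deposited TPM of Mfap2, Mfap5 and Emilin1 was lower in all 26 smoke libraries than in any of the 6 air libraries. Mfap2 ranged from 53.0 to 84.1 TPM in smoke and from 100.2 to 164 TPM in air. Mfap5 ranged from 22.4 to 38.1 TPM in smoke and from 45.3 to 75.3 TPM in air. For Emilin1 the gap was narrow, 16.8 to 37.2 TPM in smoke against 37.6 to 73.5 TPM in air. Fbln1 lay below the lowest air library in 25 of 26 smoke libraries, Fbn1 in 22, Eln and Fbln2 in 16 each and Ltbp4 in 10. Fbln5 lay above the highest air library in 21 of 26. The air libraries all come from the first experiment, so for the libraries of the second experiment smoke and experiment cannot be told apart, and no test was made.

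Among 15 other microfibril and elastic fiber proteins, 4 fell and 1 rose in females and 5 fell in males. Of all genes tested, 3.18% fell and 4.52% rose in females, and 5.33% fell and 4.93% rose in males. Ltbp1 and Ltbp2 (latent TGF-beta binding proteins), Adamtsl2 (which binds fibrillin-1) and Vcan (versican, a microfibril-associated proteoglycan) fell in both sexes. The log2 fold changes in females and males were -0.40 and -0.79 for Ltbp1, -0.84 and -1.05 for Ltbp2, -0.87 and -1.28 for Adamtsl2, and -0.97 and -0.93 for Vcan. Efemp2 (fibulin-4, needed for elastin crosslinking in mice) fell in males, with a log2 fold change of -0.40 ± 0.09 (SE, adjusted p = 0.00942). Efemp1 (fibulin-3) rose in females, with 0.42 ± 0.09 (SE, adjusted p = 0.00475). The medians of the 15 were -0.02 in females and -0.22 in males. Of the 6 lysyl oxidase family and related crosslinking genes, Loxl1 and Loxl2 fell in both sexes. The female and male log2 fold changes were -0.35 and -0.81 for Loxl1, and -0.47 and -0.85 for Loxl2. Loxl1 encodes the lysyl oxidase that acts with fibulin-5 on elastin. Loxl4 rose in females, with a log2 fold change of 0.76 ± 0.20 (SE, adjusted p = 0.0189). Of 10 elastolytic enzymes 8 were tested. Mmp2 (gelatinase A) fell in both sexes, with log2 fold changes of -0.96 in females and -1.26 in males. Mmp9 (gelatinase B) and Ctss (cathepsin S) rose in males, with 0.59 and 0.44. Mmp12, the macrophage elastase, was not called, with a female change of -0.32 ± 0.25 (SE, adjusted p = 0.507) and a male change of -0.12 ± 0.25 (SE, adjusted p = 0.831).

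Several marker lists of other cell types differed in level between air and smoke, and their part in these results was not tested. For the counts called below, the background is again 3.18% of all genes lower and 4.52% higher in females, and 5.33% and 4.93% in males. All 8 smooth muscle markers had log2 fold changes below 0 in both sexes, with 3 called in females and 1 in males. Their summed CPM was 536 to 713 in female air, 295 to 456 in female smoke, 555 to 622 in male air and 304 to 605 in male smoke. Of 8 pericyte markers, 3 fell in females and 5 in males, with sums of 371 to 497 in female air, 291 to 391 in female smoke, 442 to 621 in male air and 321 to 364 in male smoke. The 9 adventitial fibroblast markers, which include 3 that fell and 1 that rose in each sex, summed to 1413 to 1626 in female air, 1359 to 1608 in female smoke, 1701 to 1761 in male air and 1493 to 1760.4 in male smoke. The 9 alveolar fibroblast markers held 1 that fell and 1 that rose in females, and 3 and 1 in males, with sums of 5275 to 5906 and 4715 to 5511 in female air and smoke and 5389 to 6061 and 6096 to 6572 in male air and smoke. Of 6 arterial endothelial markers 2 fell in each sex, with sums of 529 to 583 and 327 to 457 in female air and smoke and 548 to 674 and 373 to 489.8 in male air and smoke. Of 8 mesothelial markers 5 rose in females and 2 in males, with sums of 958 to 1167 and 1232 to 1488 in female air and smoke and 1093 to 1442 and 1216 to 1820.3 in male air and smoke. All 6 erythroid markers rose in females and 0 of 6 were called in males (1 at an unadjusted p under 0.05), with sums of 2252 to 3175 and 6222 to 14715 in female air and smoke and 3805 to 11752 and 9096 to 11833 in male air and smoke. Of 8 large airway markers 0 were called in either sex, also at an unadjusted p under 0.05, with sums of 28354 to 40081 and 9441 to 29247 in female air and smoke and 11896 to 33149 and 5767 to 35937 in male air and smoke. Of 9 mitochondrially encoded genes 4 rose in each sex, with sums of 14687 to 17298 and 18944 to 24592 in female air and smoke and 14936 to 21326 and 18275 to 25408 in male air and smoke. Of 6 alveolar myofibroblast and ductal markers, 1 rose and 1 fell in females, and 1 rose in males. Their sums overlapped, at 58.9 to 79.9 and 56.0 to 65.8 in female air and smoke and 65.4 to 67.0 and 62.0 to 79.0 in male air and smoke. In these lists no marker was at 0 in any of the 4 groups.

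In the smoke-exposed females of the second experiment, ovariectomy was compared with sham surgery at each time. After 3 months, edgeR called 0 of the 10 genes and 0% of the 16874 genes tested, and DESeq2 also called 0 of the 10; Fbln1 and Fbln5 had an unadjusted p under 0.05. Eln measured 325, 286 and 307 CPM after sham surgery and 284, 191 and 258 CPM after ovariectomy, a log2 fold change of -0.33 ± 0.17 (SE, adjusted p = 0.567) with no overlap. Fbln1 and Fbln2 were higher in every ovariectomized library than in any sham library, with changes of 0.32 ± 0.15 (SE, adjusted p = 0.535) and 0.38 ± 0.20 (SE, adjusted p = 0.58). Groups of this size did not overlap for 7.72% of all genes in the lower and 7.5% in the higher direction. Fbln5 had a log2 fold change of 0.21 ± 0.10 (SE, adjusted p = 0.526). Those of the other 6 genes were -0.05 (Fbn1), -0.06 (Mfap2), -0.11 (Mfap4), 0.22 (Mfap5), -0.04 (Emilin1) and 0.11 (Ltbp4).

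After 5 months, Eln was lower and Fbln5 higher in ovariectomized than in sham-operated females. These 2 of the 10 genes were called, 1 in each direction, where 0.776% of all genes fell and 0.587% rose. Eln measured 317, 294, 296, 248 and 207 CPM after sham surgery and 184, 204, 151, 170.0 and 143 CPM after ovariectomy. The highest ovariectomized library lay just below the lowest sham library. The log2 fold change was -0.68 ± 0.13 (SE, adjusted p = 0.0232), a 1.60-fold fall. The call was lost without sham library 1 or 3 or ovariectomy library 3 (adjusted p 0.0551 to 0.0695), and without the 5 Alb-rich libraries of the experiment, where the change was -0.50 (adjusted p = 0.0643). That fit keeps 1 ovariectomized library at 3 months, which is assumed to vary like the other groups. Fbln5 measured 274, 355, 308, 317 and 278 CPM after sham surgery and 403, 379.7, 366, 366 and 387 CPM after ovariectomy, with no overlap and a change of 0.31 ± 0.08 (SE, adjusted p = 0.0379), a 1.24-fold rise. Its call was lost on leaving out any single library of the comparison except sham library 2, with adjusted p up to 0.119, and the log2 fold change stayed between 0.27 and 0.37.

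The ratio of Eln to Fbln5 counts in the same library, which does not depend on how libraries are scaled, was chosen after these values were seen. It was 0.744 to 1.16 in the 5 sham and 0.369 to 0.538 in the 5 ovariectomized libraries at 5 months. At 3 months it was 1.07 to 1.21 in sham and 0.585 to 1.06 in ovariectomized libraries. In the first experiment it was 0.970 to 1.17 in female smoke and 1.43 to 1.94 in female air. In males it was 0.806 to 1.34 in smoke and 1.17 to 3.07 in air, so those groups overlapped. The share of Eln in the summed TPM of the 10 genes was 18.6% ± 3.28 in sham and 11.2% ± 2.72 in ovariectomized females at 5 months (SD, n = 5 each). The size of this share depends on the deposited length of Eln. The summed TPM themselves were 1246 ± 52.4 and 1252 ± 145.

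Of the other genes, Fbln1 measured 79.6, 78.2, 61.4, 73.7 and 71.9 CPM after sham surgery and 81.2, 88.0, 101, 91.3 and 138 CPM after ovariectomy at 5 months, without overlap, a change of 0.45 ± 0.12 (SE, adjusted p = 0.0659). DESeq2 called it, with an adjusted p of 0.00566, as did edgeR without ovariectomy library 1 (0.0465) or without the Alb-rich libraries (0.0403). Non-overlap was found for 1.93% of all genes in each direction. The remaining 7 genes had log2 fold changes from -0.13 (Fbn1) to 0.28 (Fbln2). Mfap2, Mfap5 and Emilin1 had values of -0.01 ± 0.10 (SE, adjusted p = 0.984), 0.17 ± 0.10 (SE, adjusted p = 0.44) and -0.03 ± 0.13 (SE, adjusted p = 0.943), and Mfap4 and Ltbp4 of 0.21 ± 0.16 (SE, adjusted p = 0.573) and 0.20 ± 0.08 (SE, adjusted p = 0.22). None of the 15 other microfibril proteins, 6 crosslinking genes or 8 elastolytic enzymes tested was called by edgeR at 5 months, with 7, 0 and 4 at an unadjusted p under 0.05. The median of the 10 genes was 0.18, against -0.01 for all genes. The summed CPM of 2 nuclear-retained RNAs was 2398 to 3761 after ovariectomy and 4525 to 6893 after sham surgery at 5 months. Of these RNAs 0 were called and 2 had an unadjusted p under 0.05. The sum of 9 mitochondrially encoded genes was 19918 to 26779 after ovariectomy and 17058 to 23416 after sham surgery. Of these genes 1 rose and 7 had an unadjusted p under 0.05. Of 9 adventitial fibroblast markers 0 were called and 7 had an unadjusted p under 0.05, with a median log2 fold change of 0.31 and sums of 1379.5 to 1785 after ovariectomy against 1243 to 1435 after sham surgery. Of 9 alveolar fibroblast markers 1 rose and 5 had an unadjusted p under 0.05, with sums of 6154 to 6729 against 5199 to 6311. Sums of the 10 lung markers did not overlap, 56363 to 59994 against 49697 to 56033, with 0 called and 3 at an unadjusted p under 0.05. The part of these differences in the Eln and Fbln5 results was not tested. Smooth muscle marker sums of 179.7 to 238 after ovariectomy lay within the sham range of 129 to 285.

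**Figure D3:**
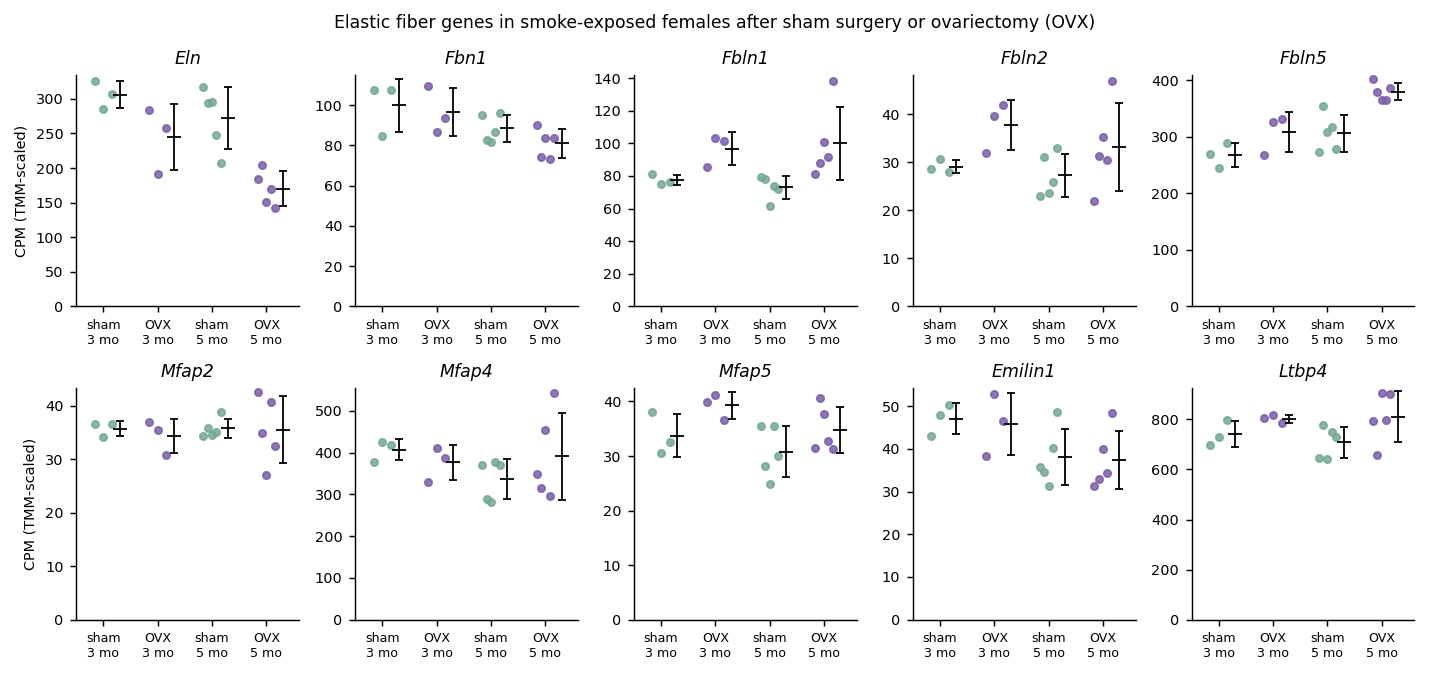
TMM-scaled CPM of the 10 genes in the 16 libraries of the second experiment, all from smoke-exposed females, 1 point per library (green, sham; purple, ovariectomy, OVX), with the mean ± SD beside each group of 3 or 5 libraries. At 5 months the Eln values after ovariectomy lie below, and those of Fbln5 and Fbln1 above, every sham value.

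The difference between the surgery effects at 5 and at 3 months was tested as an interaction. It called 0 of the 10 genes and 0% of all genes, with 0 of the 10 at an unadjusted p under 0.05 and 0 by DESeq2. For Eln the difference was -0.35 ± 0.21 (SE, adjusted p = 0.938) and for Fbln5 0.10 ± 0.12 (SE, adjusted p = 0.957). Time itself, taken as 5 against 3 months over the mean of both surgery groups, called 0 of the 10 genes and 0.13% of all genes, with 4 of the 10 at an unadjusted p under 0.05. Their log2 fold changes were -0.35 ± 0.10 (SE, adjusted p = 0.147) for Eln, -0.21 ± 0.07 (SE, adjusted p = 0.127) for Fbn1, 0.25 ± 0.06 (SE, adjusted p = 0.0721) for Fbln5 and -0.30 ± 0.10 (SE, adjusted p = 0.181) for Emilin1. DESeq2 called 2 of them, Eln and Fbln5, with adjusted p of 0.0141 and 0.00675. Both were also called by edgeR without the Alb-rich libraries, with adjusted p of 0.0431 for Eln and 0.0270 for Fbln5, where the lone ovariectomized library left at 3 months is assumed to vary like the other groups. Fbln5 was also called without sham library 1 at 5 months (adjusted p = 0.0417).

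**Figure D4:**
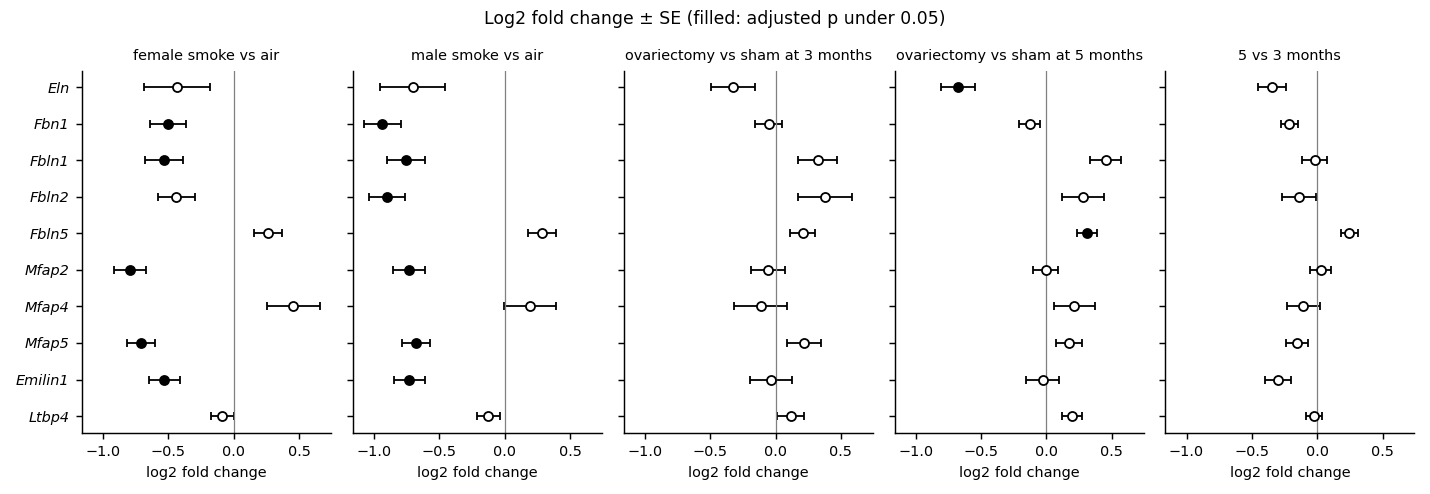
Log2 fold change ± SE of the 10 genes in 5 comparisons, from edgeR's quasi-likelihood fit, with filled points at an adjusted p under 0.05. In both smoke comparisons 8 of the 10 genes lie left of 0, with Fbln5 and Mfap4 right of it (the male Mfap4 value turns below 0 without male air library 2), while in the ovariectomy comparison at 5 months Eln is the filled point on the left and Fbln5 that on the right.

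Variation within groups was described over all 32 libraries by the Pearson correlation of log2 CPM after each group's mean was removed. Of the 45 pairs among the 10 genes, 38 had r above 0. The median was 0.23, against 0.00093 for pairs with all other genes. The highest pair was Mfap4 with Emilin1 (r = 0.70) and the lowest Fbln2 with Mfap2 (r = -0.31). The rank correlation (rho) was lower than r for Eln with Fbn1 (0.28 against 0.50), Mfap5 (0.19 against 0.39) and Mfap4 (-0.21 against 0.09), and alike for Eln with Fbln5 (0.12 for both). The part of male air library 3 in these values was not tested. For each gene, the most similar of 13405 genes was then taken. For Eln it was Col5a2, a collagen V chain (r = 0.82, rho = 0.67). For Fbn1 it was Lamc1, a laminin chain (r = 0.73, rho = 0.55), followed by Col5a2 and Col3a1. Fbln1 was closest to Igfbp4 (r = 0.76), Fbln2 to Ube4b (r = 0.78), Mfap2 to Gm4149 (r = 0.70) and Mfap5 to G0s2 (r = 0.69). Fbln5 was closest to Lrpap1 (r = 0.87), Mfap4 to Spon1 (r = 0.78), Emilin1 to Mmrn2 (r = 0.89) and Ltbp4 to Ntn3 (r = 0.86). No member of the 10 was among the 3 nearest genes of another. Both genes of a pair share libraries, depth and any difference in tissue sampled, so these values are descriptions and carry no test.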

How the data were processed

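The data are 32 libraries of lung poly(A) RNA, extracted with Trizol and prepared with a NEBNext Ultra 2 kit per the labels' protocols. The authors deposited raw counts per gene for 35275 genes and a normalized table of 35186 genes. The unit of the deposited normalized table was settled from its values as TPM: 100% equal count over gene length rescaled, within a relative tolerance of 1e-06. The submitters' processing notes name FastQC and the builds GRCm38 and mm10; the aligner and the counter are not given in the sources used. Gene coordinates used for matching are those of the deposited count table, and all 10 identifiers are in GENCODE M21.

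Each experiment was fitted separately on its counts with edgeR 4.0.16 (R 4.3.3): filterByExpr by group (16361 and 16874 genes kept), TMM, 1 mean per group over 4 groups, robust quasi-likelihood F test, Benjamini-Hochberg adjustment over all genes, called at an adjusted p under 0.05. SE is the log2 fold change over the root of F. Likeness used log2 CPM (prior count 2) of genes with mean log2 CPM of at least 1. The 10 genes and the 19 lists were chosen with earlier results of these data known. All 10 genes were tested in every comparison and are named with values for smoke and for ovariectomy; for sex, time and the interactions those with the smallest p are named, or Eln and Fbln5; other genes named are called members of 3 related lists or among the 3 most similar genes, and Mmp12 and the Eln to Fbln5 ratio were chosen after values were seen. Alternatives, in the closing section, were RLE size factors, no filter, a stricter filter (3 or more libraries with a CPM of 1 or more), a block for the replicate number, only the groups compared, all 32 libraries in 1 fit, DESeq2 1.42.0, limma 3.58.1 (trend) on log2(TPM + 1) or log2(TPM + 0.1), and leaving out each library; leaving out libraries over 100 CPM of Alb was added after the data were seen. The code was tested on simulated data. No libraries were identical, and 0 count columns stayed unmapped. Depth of 13790052 to 24497332 counts and 3 or 5 libraries per group set the precision. Plots used Python 3.11.15 and matplotlib 3.10.9.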

Additional observations from a re-analysis of the deposited data

Results flagged for a closer look

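Of 40 sets of 5 libraries examined (each of the 10 genes in each group of 5), 1 held a library far from the others, where chance gives about 1 in 20. Fbln2 in female smoke library 4 was 35.2 CPM, against 25.6 CPM in the nearest other library of its group.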

How the results depend on the processing

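Over 384 recomputed counts of called genes, 346 were within 1.5 times the reported count, and these include every reported 0 that stayed 0. Among the counts reported above 0, the falls in females stayed within that range in 11 alternatives and moved in 8, and those in males in 19 and 0. For ovariectomy at 5 months the count higher stayed in 6 and moved in 15, and the count lower stayed in 16 and moved in 5. Of 251 recomputed values of called genes, 206 kept their call, 45 lost it and 0 changed direction. In males all 6 falls held under all 19 alternatives. Of the 5 falls in females, 3 were called with no filter on low counts and 2 with limma-trend under each of its 3 forms; with only the groups compared, 1 gene (Mfap4) was called higher in females, and among the falls Eln gained its call (adjusted p = 0.0105) and Fbln1 lost it (0.0825). Males against females in air gave 1 higher with DESeq2. For ovariectomy at 5 months, the count higher was 0 with the replicate block, with all 3 limma-trend forms and with all 32 libraries in 1 fit, and 2 with DESeq2 and without the Alb-rich libraries; the count lower was 0 without the Alb-rich libraries and with all 32 libraries. For 5 against 3 months, 1 was higher and 1 lower with DESeq2 and without the Alb-rich libraries, and 1 (Emilin1) was lower with the replicate block. Leaving out each library gave 2 to 6 falls in females, 6 to 7 falls and 0 to 1 rises in males, 0 to 2 higher in males in air, 0 to 1 in each direction for ovariectomy at 5 months, and 0 to 1 higher for 5 against 3 months. The cause of these differences was not tested. The labels do not say whether the replicate numbers pair libraries, and the values showed no clear pairing. In the first experiment, correlations of same-numbered libraries' deviations were -0.37 to 0.28 (median 0.05), against -0.38 to 0.50 (median -0.005) for differently numbered ones. In the second they were -0.30 to 0.18 against -0.48 to 0.44. With the number as a block, the Fbln5 call at 5 months became an adjusted p of 0.0501 and the Fbn1 call in females 0.0705. Without the Alb-rich libraries, 1 ovariectomized library at 3 months is left and is assumed to vary like the other groups. A fit of only the groups compared was not run for the interactions and for 5 against 3 months, which use all 4 groups. With 3 or 5 libraries per group, small changes could be missed, and some larger ones too. In simulated counts, 200 genes drawn from all those tested were given a 2-fold change. Of these, 134 were recovered for female smoke against air and 128 for ovariectomy at 5 months.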
